A study of Mus musculus with 9 samples.

Results

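The 10 genes described here encode sensors of foreign or misplaced nucleic acids and the adaptors that pass their signal on. They are the RIG-I-like receptors *Ddx58* (RIG-I), *Ifih1* (MDA5) and *Dhx58* (LGP2), their adaptor *Mavs*, the endosomal receptor *Tlr3*, the DNA sensor *Mb21d1* (cGAS) with its adaptor *Tmem173* (STING), and the double-stranded RNA or Z-form nucleic acid binders *Zbp1*, *Eif2ak2* (PKR) and *Adar* (ADAR1). They were chosen by name for this shared function, with earlier results of these data known, and were matched to Ensembl mouse gene identifiers, which makes them 10 of the 54838 genes listed. Of the 12702 genes that reached at least 1 FPKM in at least 2 libraries and were tested, they were 10. Their identifiers in the files are ENSMUSG00000040296 (*Ddx58*), ENSMUSG00000026896 (*Ifih1*), ENSMUSG00000017830 (*Dhx58*), ENSMUSG00000037523 (*Mavs*), ENSMUSG00000031639 (*Tlr3*), ENSMUSG00000032344 (*Mb21d1*), ENSMUSG00000024349 (*Tmem173*), ENSMUSG00000027514 (*Zbp1*), ENSMUSG00000024079 (*Eif2ak2*), ENSMUSG00000027951 (*Adar*). FPKM counts sequenced fragments relative to the length of the transcript and the size of the library. *Zbp1* met this minimum solely through the 4-OHT DMSO libraries, so that it had to differ between groups once it was tested.

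The study asked how the m6A methyltransferase METTL3 keeps intestinal epithelial cells from dying through the kinase RIPK1. Bulk RNA-seq was performed on 7 libraries of intestinal organoids of the C57BL/6 background. Organoids are crypt-derived epithelial cultures without the other tissues of the gut wall. Every library, controls included, came from *Vil-CreERT2*;*Mettl3* fl/fl organoids, in which the villin promoter drives a tamoxifen-inducible Cre recombinase in epithelial cells and both *Mettl3* alleles are floxed. Control organoids received the vehicle ethanol (EtOH), and the others received 4-hydroxytamoxifen (4-OHT), the Cre inducer used to delete *Mettl3*. Either was combined with the vehicle DMSO or with necrostatin-1 (Nec-1), an inhibitor of RIPK1 kinase activity. Each combination had 2 libraries, except 4-OHT with Nec-1, which had 1.

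Cells recognise viral nucleic acids, and their own when these appear in the wrong place or form, through receptors in the cytosol and in endosomes. RIG-I and MDA5 bind double-stranded RNA and signal through MAVS on mitochondria, TLR3 binds it in endosomes, and cGAS binds DNA and makes the messenger cGAMP, which activates STING. These routes lead to type I and type III interferons, and many of the sensors are themselves interferon-stimulated genes. PKR halts translation by phosphorylating eIF2α, ADAR1 edits adenosines in double-stranded RNA and so limits its recognition, and ZBP1 binds Z-form nucleic acids and engages RIPK1 and RIPK3 in cell death.

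The sum of FPKM ranged from 450207 to 498712. FPKM is already relative to library size, so this sum does not measure how large the libraries were. Between 11559 and 12038 genes were at 1 FPKM or more. Fragment counts are not known, so the depth behind a single low value is unknown. Whether libraries of a group came from separate cultures or animals is not stated, and p-values measure the spread between these libraries, which may be technical. *Mettl3* itself showed no fall in libraries labelled 4-OHT (3.36 to 4.14 FPKM, against 2.41 to 2.71 FPKM with EtOH). It was called higher in 4-OHT DMSO than in EtOH DMSO, by 0.41 on the log2 scale (standard error 0.098, adjusted p = 0.0231 by limma). The floxed exon is not measured separately in these values, so every direction between EtOH and 4-OHT rests on the labels. The 8 epithelial markers looked at, such as *Epcam*, *Cdh1* and *Vil1*, were present. Of 14 immune markers 10 stayed under 0.1 FPKM in every library, among them *Cd3e* and *Ptprc* (the latter at most 0.050 FPKM), and none of 8 fibroblast markers reached 1 FPKM.

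Promoter sequences of the members are shown because interferon-responsive promoters carry short recognisable letters. RefSeq windows of 300 bases (250 before to 50 after an annotated start, GRCm38.p6) were searched for 7 of the 10 genes, 9 windows in all. No window was available for *Dhx58* and *Zbp1*, and *Tmem173* was left out of the search. The core of the interferon-stimulated response element was searched on both strands as GAAANNGAAA. It occurred in the windows of *Ddx58*, *Ifih1* and *Eif2ak2*, and in 1131 of all 32851 windows of the table, or 3.44%. In each of the 3 genes the match lay shortly after the start, from base 3 to 12 in *Ddx58*, 33 to 42 in *Ifih1* and 19 to 28 in *Eif2ak2*. A looser form without the last base, GAAANNGAA, which contains the first and was chosen after the data were seen, occurred in 8.56% of all windows. It was also found in the most downstream of the 3 *Adar* windows, at bases 34 to 42 and at bases -249 to -241. These 4 windows are printed 5′ to 3′ on the gene's strand with matches to either form in capitals, and the window of *Mavs*, which holds no match, follows for comparison.
*Ddx58*, chr4:40239776-40240075, minus strand: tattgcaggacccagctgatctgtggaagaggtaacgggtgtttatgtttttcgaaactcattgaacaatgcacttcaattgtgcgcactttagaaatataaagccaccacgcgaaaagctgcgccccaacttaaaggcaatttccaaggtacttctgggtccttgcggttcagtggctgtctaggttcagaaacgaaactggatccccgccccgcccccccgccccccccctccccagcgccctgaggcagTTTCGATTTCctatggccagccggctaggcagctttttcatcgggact
*Ifih1*, chr2:62646206-62646505, minus strand: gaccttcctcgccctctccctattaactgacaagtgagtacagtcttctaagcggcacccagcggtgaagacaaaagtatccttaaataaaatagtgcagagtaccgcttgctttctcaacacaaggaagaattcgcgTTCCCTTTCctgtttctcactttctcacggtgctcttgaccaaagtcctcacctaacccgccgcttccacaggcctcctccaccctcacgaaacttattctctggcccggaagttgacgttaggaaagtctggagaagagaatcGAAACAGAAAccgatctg
*Eif2ak2*, chr17:78882523-78882822, minus strand: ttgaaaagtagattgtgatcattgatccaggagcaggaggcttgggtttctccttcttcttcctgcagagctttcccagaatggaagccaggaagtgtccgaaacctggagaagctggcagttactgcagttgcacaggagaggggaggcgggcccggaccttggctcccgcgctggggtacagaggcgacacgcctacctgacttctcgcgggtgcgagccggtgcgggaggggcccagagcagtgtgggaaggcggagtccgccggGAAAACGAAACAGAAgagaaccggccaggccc
*Adar*, chr3:89730468-89730767, plus strand: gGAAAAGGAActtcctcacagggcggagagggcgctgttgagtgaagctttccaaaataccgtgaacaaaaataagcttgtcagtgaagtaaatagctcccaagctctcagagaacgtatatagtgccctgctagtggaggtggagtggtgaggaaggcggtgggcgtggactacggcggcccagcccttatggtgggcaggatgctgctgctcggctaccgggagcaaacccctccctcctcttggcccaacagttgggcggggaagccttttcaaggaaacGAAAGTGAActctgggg
*Mavs*, chr2:131233813-131234112, plus strand: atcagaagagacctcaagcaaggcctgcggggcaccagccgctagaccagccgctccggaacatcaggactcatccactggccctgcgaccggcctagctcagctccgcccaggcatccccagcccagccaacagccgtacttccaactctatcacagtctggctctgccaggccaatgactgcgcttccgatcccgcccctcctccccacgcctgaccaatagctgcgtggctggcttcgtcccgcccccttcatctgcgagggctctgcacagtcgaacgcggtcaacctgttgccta

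The windows of *Mavs*, *Tlr3*, *Mb21d1* and the other two *Adar* starts, which overlap each other, held neither form. A form without the first base in place of the last was not searched for. The gamma-activated site TTCNNNGAA occurred in *Eif2ak2* (TTCCCAGAA) and in the downstream *Adar* window (TTCAAGGAA), against 8.30% of all windows. The NF-κB core GGGNNNNNCC was found in the windows of *Tlr3*, *Mb21d1* and *Eif2ak2* and in 2 windows of *Adar* and in 50.79% of all windows. A match is a run of letters and not a measured binding site, and no match says only that these letters are not in this window.

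Without Nec-1, 4-OHT DMSO libraries exceeded EtOH DMSO ones for 9 of the 10 genes, with *Mavs* the exception. Leaving out *Zbp1*, which had to differ, the count was 8 of 9. By limma with Benjamini-Hochberg adjustment over all genes tested, 24.5% of the 12702 genes were called higher and 16.7% lower in this comparison (41.2% in either direction) at an adjusted p under 0.05. Of the 10, 7 rose by at least 1 log2 unit, *Zbp1* among them, as 6.72% of all genes did. Their log2 fold changes, on the log2(FPKM + 1) scale, ranged from 0.067 for *Mavs* to 3.26 for *Zbp1* with a median of 1.72, beside a median of 0.077 over all genes tested. With median centring of the libraries the median over all genes went to -0.080 and the share of higher calls among all calls from 59.5% to 41.0%, and 8 of the 10 genes, without *Tlr3*, still passed. Scaling to a common upper quartile moved the median to -0.12 and left 7 of the 10. Of all 12702 genes 2213 were called higher with median centring and 1662 with upper quartile scaling. The same 9 genes had 4-OHT DMSO values above both controls, as 40.7% of all genes did, and 0 had both below, as 30.8% did. The summed level of the 10 genes was 39.7 and 44.2 FPKM in EtOH DMSO and 117 and 127 FPKM in 4-OHT DMSO.

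**Figure D1:**
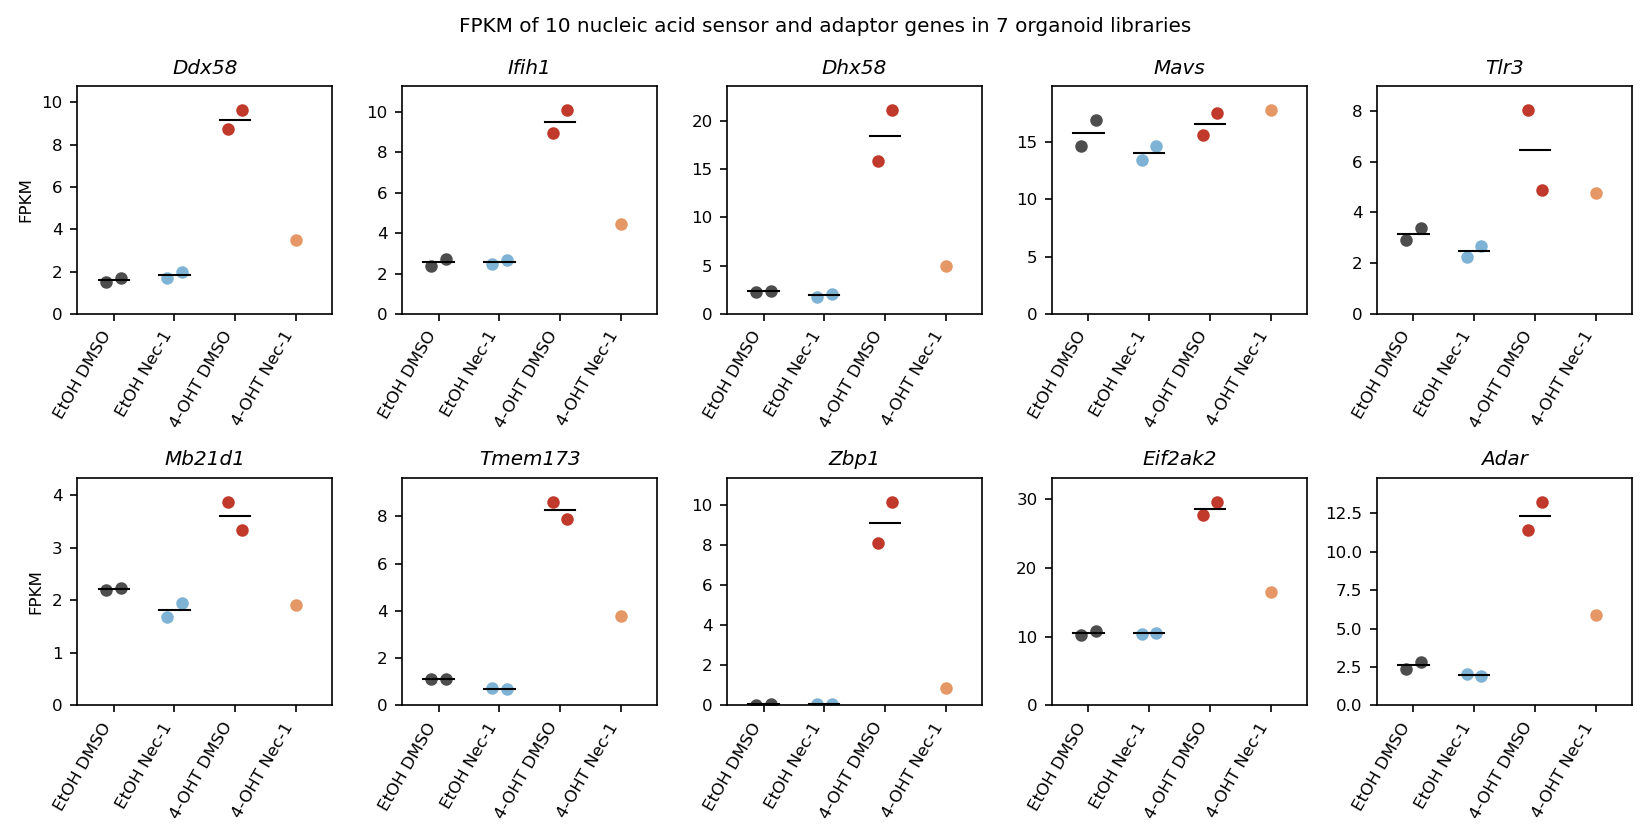
FPKM (linear axis from 0, a scale of its own for each gene) of the 10 sensor and adaptor genes in the 7 organoid libraries, with a point for each library and a line at the mean of groups with 2 libraries. For 8 of the 10 genes the single 4-OHT Nec-1 library lies above all 4 EtOH libraries and below both 4-OHT DMSO libraries. *Mavs* and *Mb21d1* are the exceptions. The share of all genes in this position was not computed, so whether it is particular to these genes was not tested. Taken singly, 50.6% of 12036 genes lay below both 4-OHT DMSO libraries, and 50.4% of 12702 genes lay above both EtOH Nec-1 libraries.

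The RIG-I-like receptors rose together. *Ddx58*, which detects short RNA with a 5′ triphosphate, was at 1.52 and 1.71 FPKM in EtOH DMSO and at 8.73 and 9.62 FPKM in 4-OHT DMSO. Both 4-OHT DMSO values lay far above both controls, and the rise was 1.96 on the log2 scale (standard error 0.11, adjusted p = 0.000449 by limma). *Ifih1*, the sensor of long double-stranded RNA, went from 2.39 and 2.73 FPKM to 8.98 and 10.1 FPKM. The groups were again apart, with a log2 fold change of 1.56 (standard error 0.11, limma adjusted p = 0.000661). *Dhx58*, a helicase without signalling domains that tunes the other two receptors, was at 2.29 and 2.36 FPKM in EtOH DMSO and at 15.8 and 21.1 FPKM in 4-OHT DMSO. It showed the largest change of the 3 receptors, a log2 fold change of 2.54 (standard error 0.15, limma adjusted p = 0.000497), although its 4-OHT DMSO libraries also differed most from each other among the 3. As ratios of group means the 3 receptors were 5.68-fold, 3.72-fold and 7.95-fold higher.

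*Mavs*, the mitochondrial adaptor through which these receptors signal, did not share this rise. It was at 14.6 and 16.9 FPKM in EtOH DMSO and at 15.6 and 17.5 FPKM in 4-OHT DMSO, and the groups overlapped. The change was 0.067 on the log2 scale (standard error 0.11, adjusted p = 0.654 by limma), and its sign turned to -0.090 with median centring. *Mavs* was also the most abundant of the 10 genes in both EtOH groups.

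*Tlr3*, the endosomal receptor for double-stranded RNA, was at 2.90 and 3.37 FPKM in EtOH DMSO and at 8.02 and 4.90 FPKM in 4-OHT DMSO. Both 4-OHT DMSO values were above the controls, but they lay 0.61 apart on the log2(FPKM + 1) scale, the widest gap between replicates of any member. The rise was 0.82 on the log2 scale (standard error 0.22, adjusted p = 0.0312 by limma). That call did not hold under most other settings. Without 4-OHT DMSO library 1 the log2 fold change was 0.51, and the largest adjusted p over the alternatives was 0.135.

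The DNA-sensing pair differed in the size of its change. *Mb21d1*, listed under its newer name *Cgas*, encodes the enzyme that makes cGAMP, and it was at 2.19 and 2.22 FPKM in EtOH DMSO and at 3.87 and 3.34 FPKM in 4-OHT DMSO. The groups did not overlap and the rise was 0.52 on the log2 scale (standard error 0.12, adjusted p = 0.0185 by limma), the smallest of the 9 that passed. With all libraries scaled to a common upper quartile it was 0.33 and no longer passed. *Tmem173*, the adaptor that binds cGAMP, went from 1.13 and 1.10 FPKM to 8.60 and 7.90 FPKM. That was a 7.42-fold rise in mean level, with a log2 fold change of 2.13 (standard error 0.10, limma adjusted p = 0.000351).

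Among the effector sensors, *Zbp1* went from the lowest level of the 10 to one near those of *Ddx58* and *Tmem173*. It was at 0.0285 and 0.0689 FPKM in EtOH DMSO and at 8.09 and 10.1 FPKM in 4-OHT DMSO. On the log2(FPKM + 1) scale the change was 3.26 (standard error 0.14, limma adjusted p = 0.000306), and with a pseudocount of 0.1 it was 5.96, since the control values are far below 1 FPKM. *Eif2ak2*, the kinase that stops translation on double-stranded RNA, was at 10.2 and 10.9 FPKM in EtOH DMSO and at 27.6 and 29.5 FPKM in 4-OHT DMSO. It was the second most abundant member in EtOH DMSO and the most abundant in 4-OHT DMSO, with a log2 fold change of 1.36 (standard error 0.082, limma adjusted p = 0.000496). *Adar*, which edits double-stranded RNA, went from 2.40 and 2.81 FPKM to 11.4 and 13.2 FPKM, a log2 fold change of 1.88 (standard error 0.12, limma adjusted p = 0.000506). The editor and the sensors of its substrate were thus higher in the same libraries. For *Ifih1*, *Dhx58*, *Eif2ak2* and *Adar*, RefSeq places other genes over the same locus, and the strand setting of the counting is not given in the sources used here, so reads of such neighbours could be included.

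**Figure D2:**
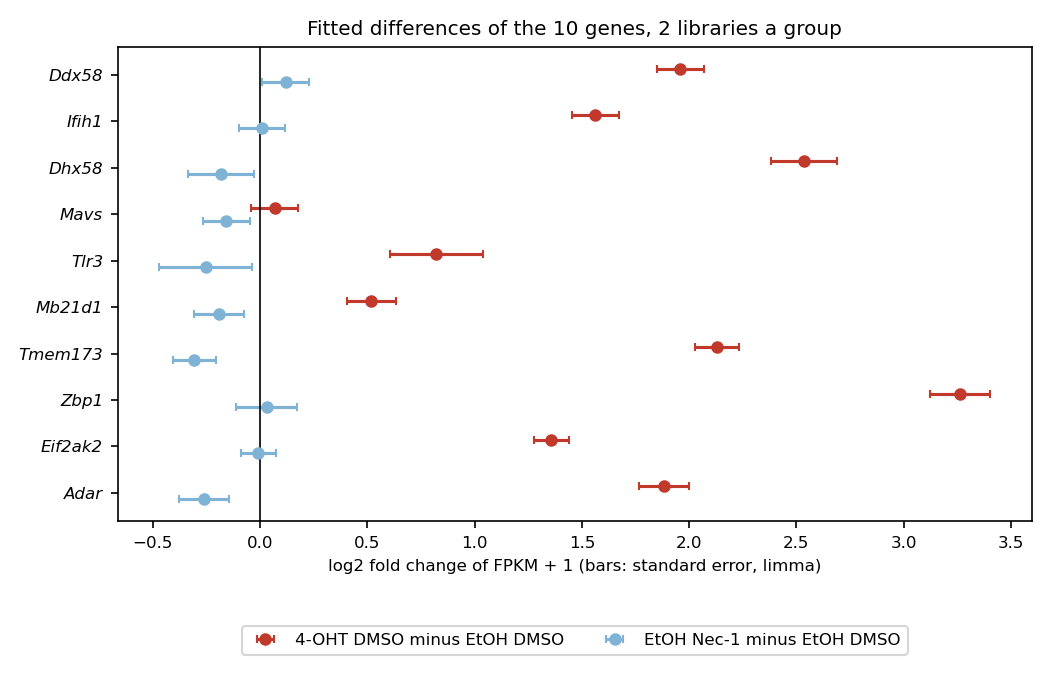
Log2 fold changes (x axis, log2 of FPKM + 1) of the 10 genes fitted with limma, with standard errors as bars, for 4-OHT DMSO minus EtOH DMSO (red) and EtOH Nec-1 minus EtOH DMSO (blue). The red points span 0.067 to 3.26 and the blue ones -0.31 to 0.12.

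Other cell markers moved with the same libraries. The 7 Paneth cell markers were higher in 4-OHT DMSO (7 of 7 passed the test, against 24.5% of all genes), and their summed level was 7624 to 8438 FPKM in EtOH DMSO, 8955 to 9159 in EtOH Nec-1, 20008 to 20599 in 4-OHT DMSO and 15328 with 4-OHT and Nec-1. Of 8 enterocyte markers tested, 4 were lower, among them *Alpi* (-1.53 on the log2 scale) and *Sis* (-1.37), and 2 were higher, *Anpep* (1.08) and *Apoa1* (0.61). Of the 8 general epithelial markers 6 were higher. Among all genes 16.7% were lower and 24.5% higher. The part of Paneth cells and other epithelial cell types in the rise of the sensors was not tested. In bulk organoids a change in the share of cells that express a gene and a change in RNA per cell cannot be told apart. The summed level of the 14 immune markers was 2.82 to 4.18 FPKM in the EtOH libraries and 6.58 to 8.72 FPKM in the 4-OHT ones. Most of the latter came from *Cd68*, a lysosomal protein gene of macrophages, at 5.69 to 7.72 FPKM. *Cd68* was called higher in 4-OHT DMSO than in EtOH DMSO, by 1.73 on the log2 scale (standard error 0.28, adjusted p = 0.00689 by limma). *Itgam*, the other immune marker that was tested, was at 1.19 to 2.45 FPKM in the EtOH libraries and at 0.315 and 0.917 FPKM in 4-OHT DMSO, a log2 fold change of -0.68 that did not pass the limma test (adjusted p = 0.0786). *Cd4* and *Itgax* were listed at 0 in every library, and *Ptprc*, which all leukocytes express, stayed at or under 0.050 FPKM. The part of *Cd68*-expressing cells in the rise was not tested.

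The order of the members by level changed between groups. In EtOH DMSO it ran *Mavs*, *Eif2ak2*, *Tlr3*, *Adar*, *Ifih1*, *Dhx58*, *Mb21d1*, *Ddx58*, *Tmem173* and *Zbp1*. There *Adar* and *Ifih1* overlapped, and *Tlr3*, *Dhx58* and *Mb21d1* were set off from a neighbour by less than 0.1 FPKM. In 4-OHT DMSO the order was *Eif2ak2*, *Dhx58*, *Mavs*, *Adar*, *Ifih1*, *Ddx58*, *Zbp1*, *Tmem173*, *Tlr3* and *Mb21d1*. There *Dhx58* overlapped *Mavs*, and *Ifih1*, *Ddx58*, *Zbp1* and *Tmem173* each overlapped the next in this order. *Dhx58* moved from the sixth to the second place and *Tlr3* from the third to the ninth. In the 4-OHT Nec-1 library *Mavs* and *Eif2ak2* were again first, at 17.7 and 16.4 FPKM, and the other members followed between 5.91 FPKM for *Adar* and 0.891 FPKM for *Zbp1*.

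The comparison of EtOH Nec-1 with EtOH DMSO asks what the inhibitor did in control organoids. None of the 10 genes passed the limma test there (0 of 10), and 0.22% of all genes did (0.173% higher and 0.0472% lower). Without adjustment 1 of the 10, *Tmem173*, had a p under 0.05, as 13.3% of all genes did, and limma without the mean-variance trend also called 0. The log2 fold changes ran from -0.31 for *Tmem173* to 0.12 for *Ddx58*, with limma adjusted p-values of 0.322 to 0.989. Their median was -0.17, beside -0.094 over all genes tested. *Tmem173* was at 0.718 and 0.695 FPKM with Nec-1, below both DMSO values (log2 fold change -0.31, standard error 0.10). *Dhx58*, *Mavs*, *Tlr3*, *Mb21d1* and *Adar* also lay below both controls without overlap, as 39.1% of all genes did. *Adar* was at 2.07 and 1.94 FPKM (log2 fold change -0.26, standard error 0.12), and *Tlr3* at 2.25 and 2.69 FPKM (-0.25, standard error 0.22). *Zbp1* stayed under 0.1 FPKM, at 0.0805 and 0.0616.

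In organoids labelled 4-OHT, 9 of the 10 genes were lower in the Nec-1 library than in both DMSO libraries. With 1 library there is no replicate check and no test. Among the 12036 genes whose mean over these 3 libraries was 1 FPKM or more, 50.6% lay below both and 24.5% above both. A difference of at least 1 log2 unit below each DMSO library was reached by *Zbp1*, *Dhx58* and *Ddx58* (3 of 10), and by 1.21% of all genes. *Zbp1* was under 1 FPKM with Nec-1 and met the minimum solely through the DMSO libraries, so that it had to lie below their mean. Without it *Dhx58* and *Ddx58* remain. As far above each DMSO library lay 0 of the 10, and 0.764% of all genes. The median difference was -0.94, beside -0.089 over all genes.

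*Zbp1* was at 0.891 FPKM in 4-OHT Nec-1, which is -2.27 and -2.56 on the log2(FPKM + 1) scale against each 4-OHT DMSO library. *Dhx58* was at 4.93 FPKM (-1.51 and -1.90) and *Ddx58* at 3.49 FPKM (-1.12 and -1.24). For these 3 genes the differences were larger than the gap between the DMSO libraries, which was at most 0.39. *Ifih1* (4.46 FPKM), *Tmem173* (3.78 FPKM) and *Adar* (5.91 FPKM) came close to 1 log2 unit, with mean differences of -0.95, -0.95 and -0.94, each past it against 1 DMSO library and short of it against the other. *Eif2ak2* was at 16.4 FPKM, a difference of -0.76. *Mb21d1*, at 1.91 FPKM, differed by -0.66. *Tlr3* lay at 4.75 FPKM, just under the lower DMSO library, with differences of -0.65 and -0.037. *Mavs*, at 17.7 FPKM, was the exception and had its highest value of all 7 libraries there, 0.17 and 0.019 above the DMSO libraries.

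**Figure D3:**
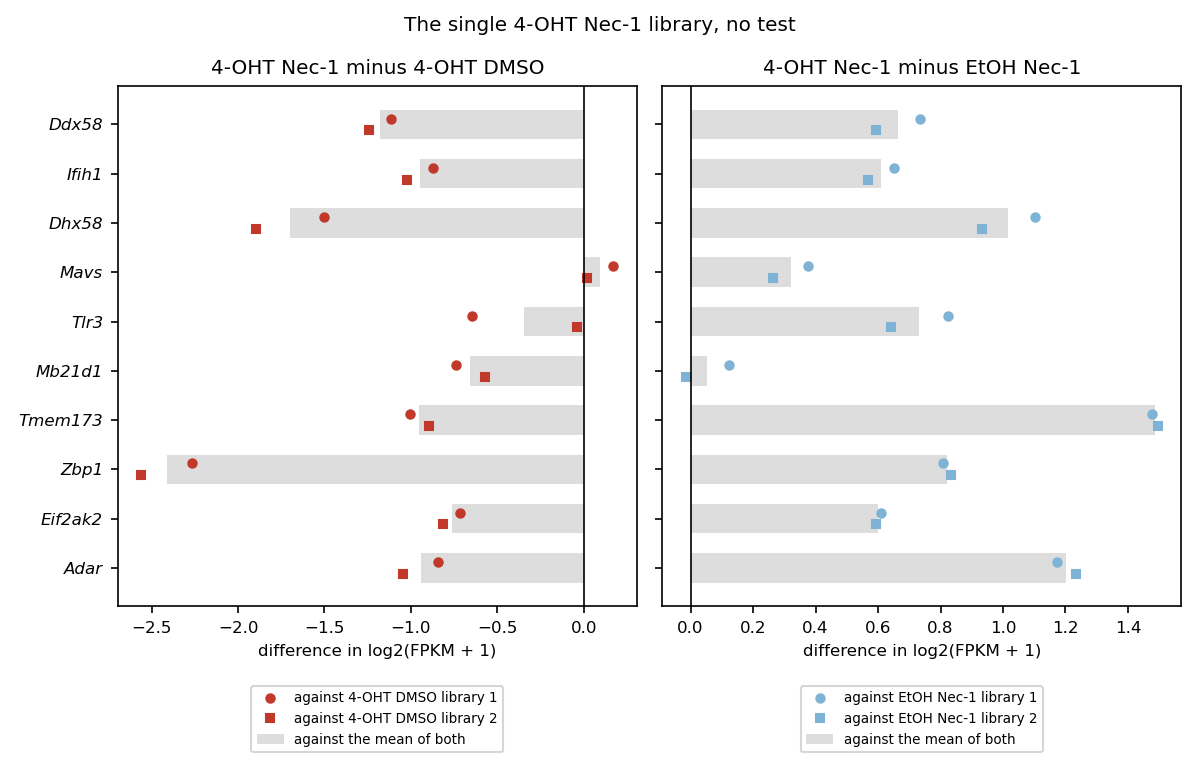
Differences in log2(FPKM + 1) of the single 4-OHT Nec-1 library from the 4-OHT DMSO libraries (left) and from the EtOH Nec-1 libraries (right), with points for each library and grey bars for the difference from their mean. On the left 9 of 10 genes lie below 0 against both libraries, and on the right 9 of 10 lie above 0 against both.

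Under Nec-1 most of the genes were nevertheless higher in the library labelled 4-OHT than in the EtOH libraries, a comparison that was added after the data were seen and has no test. In 4-OHT Nec-1, 9 of the 10 genes were above both EtOH Nec-1 libraries, as were 50.4% of the 12702 genes, and 0 were below both, as 38.0% were. *Tmem173* (1.48 and 1.50) and *Adar* (1.17 and 1.23) lay at least 1 log2 unit above each of them, which 4.09% of all genes did, and 0 lay as far below, as 1.82% did. *Dhx58* was higher by 1.10 and 0.93, *Zbp1* by 0.81 and 0.83, and *Tlr3* by 0.82 and 0.64. For *Zbp1* the mean difference of 0.82 became 2.54 with a pseudocount of 0.1 and 1.83 with one of 0.25, past 1 log2 unit. *Mb21d1* lay between the EtOH Nec-1 libraries, which makes it the only member that was back within the range of the EtOH groups. The median difference was 0.70 for the 10 genes and 0.076 over all genes. The summed level was 64.3 FPKM in 4-OHT Nec-1 and 36.6 and 39.2 FPKM in EtOH Nec-1. The 2 comparisons share the 4-OHT Nec-1 library.

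The other genes of the pathways were taken from 8 lists of pathway genes, and 81 of them besides the members were tested. In 4-OHT DMSO against EtOH DMSO, 10 of 16 kinases, adaptors and interferon regulatory factors downstream of the sensors were higher and 0 lower (limma, adjusted p under 0.05), beside 24.5% higher and 16.7% lower among all genes. Of these 10, *Irf5* and *Traf3* reached 1 FPKM in fewer than 2 EtOH libraries and were tested through the 4-OHT ones, and without such genes the count was 8 of 14. *Irf7*, which drives interferon-α genes, went from 1.85 and 1.86 FPKM to 36.0 and 50.2 FPKM (log2 fold change 3.93, standard error 0.18) and was at 8.74 FPKM in 4-OHT Nec-1. In the same comparison *Irf5* rose by 1.19, *Myd88*, the adaptor of most Toll-like receptors, by 1.15 and the ubiquitin ligase *Traf6* by 0.91 on the log2 scale.

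Of 13 regulators of the RIG-I-like receptors 6 were higher and 2 lower, or 5 higher and 2 lower of 12 without *Nlrx1*, which was likewise tested through the 4-OHT libraries. *Trim25*, a ubiquitin ligase linked to RIG-I, rose from 4.20 and 6.69 FPKM to 53.4 and 58.2 FPKM (log2 fold change 3.17, standard error 0.42), and its EtOH Nec-1 libraries differed widely, at 5.63 and 14.8 FPKM. *Znfx1*, *Zc3hav1* and *Rnf135* rose by 1.34, 1.15 and 1.05 on the log2 scale. The 2 lower genes, named after their values were seen, were *Prkra* and *Pcbp2*. *Prkra*, which encodes the PKR activator PACT, fell by 0.94 and *Pcbp2*, a negative regulator of MAVS, fell by 0.65. Of 13 other nucleic acid sensors 8 were higher and 1 lower, or 7 and 1 of 12 without *Ddx60*, which met the minimum solely through the 4-OHT libraries. Without EtOH DMSO library 1 or 4-OHT DMSO library 1 the 9 calls of this list fell to 5. *Ddx60*, a helicase of the antiviral response, went from 0.200 and 0.223 FPKM to 12.9 and 19.1 FPKM (log2 fold change 3.78), *Lrrfip1* rose by 1.21 and *Unc93b1*, which carries Toll-like receptors to endosomes, by 0.66. *Nlrp6* fell by 0.82, from 51.4 and 62.5 FPKM to 28.1 and 35.8 FPKM, and was at 51.1 FPKM in 4-OHT Nec-1. In that single library, without a test, list medians against 4-OHT DMSO ran from -0.25 to 0.060, beside -0.089 over all genes. At least 1 log2 unit below each 4-OHT DMSO library lay 2 of 16 downstream genes (*Irf7* and *Irf5*) and 1 of 13 other sensors (*Ddx60*). The other lists had 0, and the share of all genes was 1.21%. *Irf5*, at 0.249 FPKM with Nec-1, met the minimum solely through the DMSO libraries.

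Of 11 genes that remove or edit self nucleic acids 4 were higher and 0 lower, and 2 were called when either EtOH Nec-1 library was left out. Among all genes 24.5% were higher. *Trex1*, the cytosolic DNA exonuclease, rose from 0.715 and 1.03 FPKM to 18.6 and 17.1 FPKM (log2 fold change 3.33, standard error 0.23), and *Pnpt1*, a mitochondrial RNA exonuclease, rose by 1.04. *Skiv2l* and *Banf1* had log2 fold changes of 0.39 and 0.34 that did not pass with median centring. Among 12 genes of cGAMP transport and STING trafficking 0 were higher and 2 lower, the channel subunit *Lrrc8e* by -0.83 and *Tmed2* by -0.36, although *Tmem173* itself rose. The share of lower genes in this list equals the 16.7% among all genes, and 1 was called when any EtOH library or 4-OHT DMSO library 2 was left out. The median of this list was 0.0057 and turned to -0.15 with median centring, and that of the removal genes went from 0.10 to -0.057. The 5 death partners of ZBP1 included 4 that rose, by 1.77 for *Mlkl*, 1.04 for *Ripk1*, 0.62 for *Fadd* and 0.60 for *Ripk3*. Of 11 genes of the eIF2 kinases, subunits and phosphatase 5 rose, led by *Eif2b1* (0.85), *Ppp1r15b* (0.82), *Eif2ak3* (0.75) and *Ppp1r15a* (0.58). With median centring 7 of the downstream genes were higher and 1 lower, 5 of the other sensors were higher and 1 lower, and 2 of the removal genes were higher and 0 lower. With upper quartile scaling 3 of the other sensors were higher. Among all 12702 genes 2213 were higher and 3187 lower with median centring, and 1662 and 2989 with upper quartile scaling. *Fadd* (adjusted p = 0.0996 by limma), *Ppp1r15a*, *Skiv2l* and *Banf1* did not pass with upper quartile scaling, which left 3 of the death partners and 3 of the eIF2 genes. Without EtOH DMSO library 1 the eIF2 genes called were also 3.

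**Figure D4:**
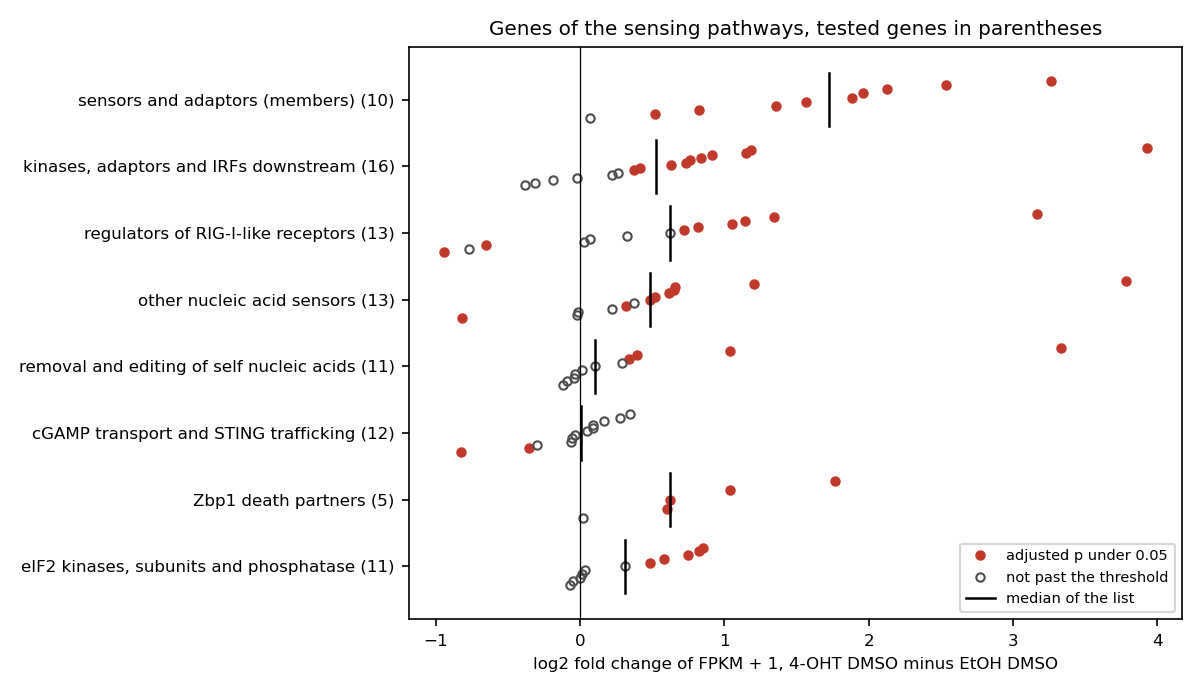
Log2 fold changes (x axis, log2 of FPKM + 1, 4-OHT DMSO minus EtOH DMSO) of each tested gene of the sensing pathways, a row per list, filled where limma's adjusted p is under 0.05, with a black line at the median of each list. The 10 sensors and adaptors have a median of 1.72, and the medians of the other 7 lists lie between 0.0057 and 0.62.

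The interferon ligand genes looked at were at or near 0. They do not cover every interferon gene, and *Ifng* and *Ifne* are among them. Of these 11 genes 7 were listed at 0 in every library, including *Ifnb1*, *Ifnl2* and *Ifnl3*, and none was tested. The highest value was 0.174 FPKM, for *Ifne* in 4-OHT DMSO library 2. Because fragment counts are unknown, these values do not exclude low expression. In EtOH Nec-1 against EtOH DMSO 0 of the 81 pathway genes passed the limma test, as 0.22% of all genes did, 6 (7.41%) had an unadjusted p under 0.05, as 13.3% of all genes did, and limma without the trend also called 0.

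Genes outside the 10 with the most similar pattern were ranked by the root mean square difference of centred log2(FPKM + 1) over the 7 libraries, as a description. Closest to *Ddx58* were the mitochondrial tRNA gene *mt-Tf*, *Trim6* and *Mitd1*, to *Ifih1* *H2-D1*, *Slc9a4* and *Dynap*, and to *Dhx58* *Irgm2* (0.056) and *Trim30d* (0.091). *Zbp1* lay nearest to *Apol9a* (0.099), *Gm12250* and *Ifi47* (0.17), and *Tmem173* to *Slamf9*, *Ptp4a3* and *S100a11* (0.096 to 0.11). For *Adar* they were *Gm6548* (0.068), *Cd44* and *Dtx3l*, and for *Eif2ak2* *Zmynd15* (0.045), *Fgd3* and *Gm16192*. The pseudogene *Gm6548* overlaps the locus of *Eif2ak2* in RefSeq, and it was at 5.96 and 7.27 FPKM in EtOH DMSO and 25.3 and 26.5 FPKM in 4-OHT DMSO. *Tlr3* was followed by *Mir17hg*, *Slco3a1* and *Amd1*, *Mb21d1* by *Ranbp1* (0.049), *Anp32b* and *Fbl*, and *Mavs* by *Coro2a* (0.028), *Rexo1* and *Ip6k2*. Of these neighbours *Trim6*, *Slc9a4*, *Dynap*, *Irgm2*, *Trim30d*, *Apol9a*, *Gm12250*, *Zmynd15*, *Fgd3*, *Gm16192* and *Slco3a1* were under 1 FPKM in every EtOH library. They met the minimum solely through the 4-OHT libraries. The added 1 FPKM shrinks their changes, so a small distance need not mean a similar fold. *Zmynd15* went from 0.152 and 0.188 FPKM in EtOH DMSO to 2.04 and 2.03 FPKM in 4-OHT DMSO. Among the members, *Ifih1* and *Eif2ak2* were the closest pair at 0.093, followed by *Ddx58* with *Ifih1* and *Tmem173* with *Adar* at 0.16 each, and *Mavs* and *Zbp1* were the furthest apart at 1.37.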

How the data were processed

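Bulk RNA-seq libraries of mouse intestinal organoids were analysed (7 libraries in 4 groups). Groups were taken from the sample labels. The authors deposited FPKM per Ensembl gene for each library, and the submitters' processing notes name HISAT2 2.1.0, StringTie 1.3.3b and the mm10 build. The kit was NEBNext Ultra RNA, and the strand setting of the counting is not given in the sources used here. The table lists 54838 genes, 54723 of them with a symbol and 26643 at 0 in every library. Repeated columns (2) were the same within a relative difference of 0.000147. Fragment counts are unknown, so no counting interval is given. The 2 Atf3 chromatin samples were not analysed here.

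Values were transformed as log2(FPKM + 1), and the 12702 genes that reached 1 FPKM in 2 or more libraries were fitted with limma 3.58.1 in R 4.3.3, with 1 mean per group over all 7 libraries, a mean-variance trend and 3 residual degrees of freedom. P-values were adjusted by Benjamini-Hochberg and called under 0.05. The single 4-OHT Nec-1 library was compared with each library of another group without a test, and a gene was counted as past the fold where it differed by at least 1 log2 unit from each. EtOH DMSO serves in both limma comparisons, and 4-OHT DMSO in 2 of the comparisons. The rest was done in Python 3.11.15, with matplotlib 3.10.9 for the plots and scipy 1.17.1, pandas 2.3.3 and numpy 2.4.6 for the tables. The limma step was tested on simulated data.

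The 10 genes and the pathway and marker lists were chosen with earlier results of these data known, and support nothing by themselves. The text names all 10 genes, up to 4 called genes per pathway list with the largest change (and a few further ones named after their values were seen), and the 3 genes most like each member, except for an item that is not reported here. The comparison of 4-OHT Nec-1 with EtOH Nec-1 and the looser promoter motif were chosen after the data were seen. Promoter windows came from RefSeq (GRCm38.p6) and were matched by symbol for 7 of the 10 genes. *Tmem173* was left out of this step, while the shares cover all windows of the table. Alternatives were other scaling, low-value filters, pseudocounts, call rules, libraries in the fit, a replicate block and leaving out each library.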

Additional observations from a re-analysis of the deposited data

Results flagged for a closer look

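The values of *Mavs* with Nec-1 lay on opposite sides of those with DMSO in the EtOH and 4-OHT organoids. Its log2(FPKM + 1) differed by -0.16 between EtOH Nec-1 and EtOH DMSO, with both Nec-1 libraries (13.4 and 14.6 FPKM) below both DMSO libraries (14.6 and 16.9 FPKM). In the single 4-OHT Nec-1 library (17.7 FPKM) it lay 0.095 above the mean of the 4-OHT DMSO libraries and above each of them, less than the gap of 0.15 between those libraries. Among all genes 39.1% lay below both controls in the first comparison and 24.5% above both libraries in the second. The difference between these groups was not tested, and the first difference did not pass the limma test (adjusted p = 0.578).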

How the results depend on the processing

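Between 7 and 9 of the 10 genes were called in 4-OHT DMSO against EtOH DMSO under every alternative that kept 2 libraries in both groups. With a minimum of 1 FPKM in every library 7 of 8 genes were called, since *Zbp1* and *Tmem173* were not tested there. *Tlr3* no longer passed under 12 of 18 alternatives and *Mb21d1* under 6 of 18. Both counts include the rules that also ask for 1 log2 unit, where the limma adjusted p stayed at 0.0312 and 0.0185. With upper quartile scaling the limma adjusted p was 0.107 for *Tlr3* and 0.145 for *Mb21d1*. The cause was not tested. The sign of *Mavs* turned to -0.090 with median centring, -0.17 with upper quartile scaling, and -0.030 and -0.0092 without EtOH DMSO library 1 or 4-OHT DMSO library 2 (-0.030 to 0.16 over all libraries left out). In EtOH Nec-1 against EtOH DMSO, *Ifih1* turned to -0.061 and -0.034 without EtOH DMSO library 1 or EtOH Nec-1 library 2 (range -0.061 to 0.075), and *Eif2ak2* to 0.090 with centring, 0.038 with upper quartile scaling and 0.032 without EtOH DMSO library 2 (range -0.049 to 0.032). Over all genes in 4-OHT DMSO, the 5237 calls became 1364 with an unadjusted p under 0.05 and 1 log2 unit, and 1319 with an adjusted p and 1 log2 unit. In EtOH Nec-1 the 28 calls became 47 with upper quartile scaling, 8 without a filter, 79 with only the 4 libraries of the comparison, 90 by the unadjusted p and 1 log2 unit, and 9 to 75 without 1 library. Against 4-OHT DMSO, the 146 genes that 4-OHT Nec-1 had lower by 1 log2 unit or more became 97 with a mean of at least 5 FPKM, 255 and 232 with pseudocounts of 0.1 and 0.25, and 241 to 526 against 1 library, where 4 to 5 of the 10 genes instead of 3 passed. The 92 genes that were higher became 180 to 246 against 1 library. Against EtOH Nec-1, the 231 lower genes became 137 at a mean of at least 5 FPKM, 458 and 397 with the 2 pseudocounts, and the 519 higher ones 296, 955 and 849. Of the 10 genes 2, *Tmem173* and *Adar*, were higher, and 4 with either pseudocount. A mean of at least 5 FPKM removed both *Tmem173* and *Adar*, so they were not assessed there.

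The replicate numbers only name the libraries (correlations of replicate deviations -0.040, 0.0065 and -0.012). With the replicate block 8 of the 10 genes and 4697 of all genes were called in 4-OHT DMSO, *Tlr3* being lost, and 0 and 19 in EtOH Nec-1. Fragment counts are unknown, so the precision of levels under 1 FPKM, such as those of *Zbp1* in EtOH, cannot be stated.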
